A study of Mus musculus with 3 samples.

Results

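Myc and 7 genes of ribosome biogenesis, Ncl, Npm1, Nop56, Nop58, Fbl, Rrs1 and Nolc1, were followed in wild-type alloreactive CD4+ T cells from the graft and from the spleen. The genes were chosen by name, 8 of the 28692 genes named in the wild-type matrices, and all 8 were found there. TEa cells carry a transgenic T cell receptor that recognises a BALB/c alloantigen. Naive, congenically marked wild-type TEa cells had been given to C57BL/6 mice that then received BALB/c hearts, and TEa cells were sorted on day 7 from the heart allografts (1 library, called heart) and from the spleens (1 library, called spleen). Both groups are therefore wild-type TEa cells in allografted C57BL/6 hosts and differ in the organ from which they were sorted. A library of Ldha-/- TEa cells from the spleen was not analysed here. How many mice were pooled in a library is not given in the sources used here.

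MYC is a transcription factor that pairs with MAX and drives growth when T cells are activated. Among its best known targets are the genes that build ribosomes in the nucleolus, where ribosomal RNA is transcribed, modified by small nucleolar RNA (snoRNA) particles, cut and assembled with ribosomal proteins. Resting T cells keep this machinery low and raise it before they divide. Nop56, Nop58 and the methyltransferase fibrillarin (Fbl) are the core proteins of box C/D snoRNA particles, which methylate ribosomal RNA. Nucleolin (Ncl) and nucleophosmin (Npm1) are abundant nucleolar proteins, Nolc1 is a nucleolar chaperone of snoRNA particles, and Rrs1 brings the 5S particle into the precursor of the large subunit.

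The genes lie on 6 chromosomes of GRCm38, the assembly that mm10 denotes, with positions from GENCODE M21. Myc is on chromosome 15 (61985391 to 61990374, plus strand), Npm1 on chromosome 11 (33152287 to 33163206, minus), Fbl on chromosome 7 (28169710 to 28179269, plus) and Nolc1 on chromosome 19 (46075863 to 46085530, plus). Rrs1 (9545408 to 9547455, plus), Nop58 (59684971 to 59719044, plus) and Ncl (86344719 to 86359400, minus) are all on chromosome 1, and Nop56 is on chromosome 2 (130274430 to 130279313, plus). Of the 8 genes, 3 carry snoRNA genes within them on the same strand: Ncl with 3, Nop56 with 5 and Nop58 with 4. The others carry none. Nop56 overlaps Idh3b on the opposite strand. Whether counting used strand is not given in the sources used here, so UMIs of Nop56 and Idh3b may not be fully told apart.

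Promoter sequence from RefSeq (GRCm38.p6) was matched for 4 of the 8 genes. The stretches below end before the start of the gene in both annotations. They are shown as the promoters of those 4 members that could be read, all of genes that differed between cycling and non-cycling heart cells. Capitals mark CCGGAA on either strand, the core letters that ETS factors bind. This motif was chosen after the sequences had been seen.
Nolc1, chr19:46075597-46075846, plus strand: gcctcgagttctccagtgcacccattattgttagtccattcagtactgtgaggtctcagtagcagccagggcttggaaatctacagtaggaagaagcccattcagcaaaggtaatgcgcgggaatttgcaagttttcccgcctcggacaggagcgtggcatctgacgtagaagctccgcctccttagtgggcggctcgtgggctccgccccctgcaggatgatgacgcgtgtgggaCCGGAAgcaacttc
Nop58, chr1:59684756-59684970, plus strand: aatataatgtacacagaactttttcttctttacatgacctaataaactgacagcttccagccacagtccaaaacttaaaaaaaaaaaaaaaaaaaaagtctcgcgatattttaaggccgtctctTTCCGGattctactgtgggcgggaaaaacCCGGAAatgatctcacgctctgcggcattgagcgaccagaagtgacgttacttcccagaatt
Ncl, chr1:86359456-86359705, minus strand: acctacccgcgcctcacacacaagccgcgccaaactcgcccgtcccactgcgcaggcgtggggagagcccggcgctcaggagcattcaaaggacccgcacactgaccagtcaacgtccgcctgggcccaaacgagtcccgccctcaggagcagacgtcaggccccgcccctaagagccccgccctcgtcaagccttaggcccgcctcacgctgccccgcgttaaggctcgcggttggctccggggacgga
Nop56, chr2:130274162-130274411, plus strand: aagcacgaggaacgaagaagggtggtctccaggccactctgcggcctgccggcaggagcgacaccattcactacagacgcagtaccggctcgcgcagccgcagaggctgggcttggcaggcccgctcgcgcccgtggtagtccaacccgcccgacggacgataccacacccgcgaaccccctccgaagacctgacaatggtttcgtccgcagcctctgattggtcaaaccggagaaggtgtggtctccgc
Of 32851 RefSeq promoter windows of 300 bases, 14.9% held CCGGAA on either strand, and of the 4 matched windows those of Nop58 and Nolc1 did. CACGTG, the E-box that MYC and MAX bind, was in 7.15% of all windows and in 0 of these 4. A match is a description of letters, and windows farther from the start were not searched.

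After filtering, 3985 T cells from heart and 6559 from spleen remained, with 42249887 and 56017269 UMIs (unique molecular identifiers, each counting 1 captured transcript). Levels are counts per 1000000 UMIs (CPM) of the summed cells with exact 95% Poisson intervals, and ratios of CPM have exact binomial 95% intervals. Intervals cover counting error only. With 1 library in each group there was no test, and organ and library cannot be told apart. A cell counted as cycling when, after each cell had been thinned to 1000 UMIs, it held at least 2 UMIs of 10 cycling markers. This gave 432 cycling cells in heart (10.8%) and 145 in spleen (2.21%), with median UMI counts of 19689.5 and 15146, against 7881 and 7954.5 in non-cycling cells. The limit divides a range: 413 heart and 303 spleen cells held exactly 1 marker UMI and were counted as non-cycling. Of 8 cycling markers that reached 10 CPM in non-cycling cells of either organ, 8 were higher in heart. Of the cell barcodes, 6 occurred in both libraries. T cell markers summed to 12020 CPM in heart against 11960 CPM in spleen. Among 12 lists of other cell types the highest sums were those of monocytes or macrophages (328 and 205 CPM), B cells (44.1 and 178 CPM), plasma cells (60.0 and 39.2 CPM) and endothelial cells (27.9 and 63.3 CPM). In heart the defining genes Ms4a1, Jchain, Adgre1, Cdh5, Kdr and Vwf were at 0, and the cardiomyocyte genes Myh6, Tnnt2 and Actc1 were at 0 in both. The part of other cell types in the values below was not tested.

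Myc was lower in graft than in spleen cells outside the cycle, and in cycling cells the counts were too few to separate the organs. In non-cycling cells Myc was at 2.74 CPM (2.2 to 3.36, 90 UMIs) in heart against 14.2 CPM (13.3 to 15.3, 764 UMIs) in spleen, a 5.21-fold lower level in heart (interval 4.18 to 6.55). In cycling cells it was at 5.12 CPM (3.78 to 6.79, 48 UMIs) in heart against 7.91 CPM (4.76 to 12.4, 19 UMIs) in spleen, and the interval of that ratio (0.374 to 1.17) includes equality. On the log2 scale of (CPM + 1), used from here on where a value is called a log2 ratio, heart over spleen was -2.03 in non-cycling and -0.54 in cycling cells. Of all genes that reached 10 CPM in either organ, 1.06% had a lower ratio than Myc in non-cycling cells.

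The share of non-cycling cells with a Myc UMI was lower in heart too. After thinning to 4000 UMIs, which left out 83 heart and 70 spleen cells, 33 of 3470 non-cycling heart cells held a Myc UMI (0.951%, exact interval 0.656 to 1.33%) against 280 of 6344 in spleen (4.41%, 3.92 to 4.95%). Without thinning the shares were 2.05% and 9.18%. In cycling cells the thinned shares were 0.935% (0.255 to 2.38%) in heart and 2.07% (0.429 to 5.93%) in spleen, too few cells to order. In heart the level in CPM was higher in cycling than in non-cycling cells. The thinned shares there do not decide whether they follow it, since the cycling share rests on 4 of 428 cells and its interval covers the non-cycling one. Free RNA can give such UMIs. In barcodes with 1 to 50 UMIs, which are mostly empty droplets, Myc was at 3.75 CPM (1.38 to 8.17) in the heart library and 18.5 CPM (13.8 to 24.4) in the spleen library, and so at levels like those of each library's cells. No cell type that lacks these genes was at hand to measure the background.

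**Figure D1:**
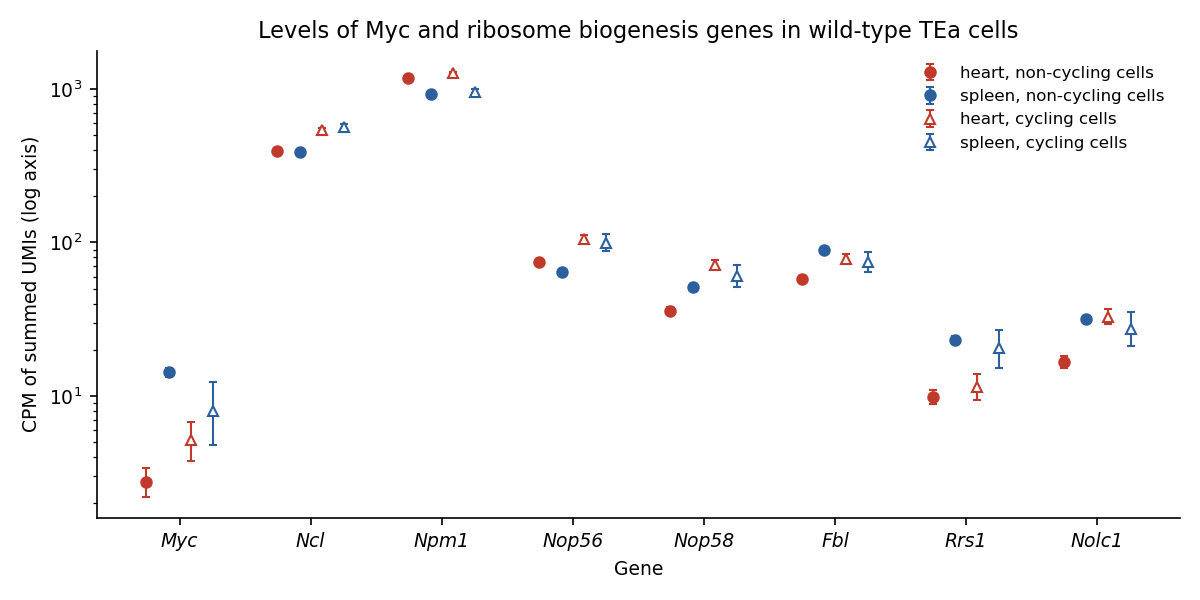
Levels of the 8 genes in CPM of summed UMIs on a log axis, with exact 95% Poisson intervals, for heart (red) and spleen (blue) and for non-cycling (filled circles) and cycling cells (open triangles), 1 library each. Myc, Rrs1, Nolc1, Fbl and Nop58 sit lower in non-cycling heart than in non-cycling spleen cells, Npm1 and Nop56 higher, and Ncl level.

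The 7 ribosome biogenesis genes did not all differ in 1 direction between the organs. In non-cycling cells 4 were lower in heart, 2 were higher, and Ncl was level, with a median log2 ratio of -0.52. The median over the 6879 genes that reached 10 CPM in either organ was -0.15, and all 8 members reached it. Of the 8 genes, Myc and Rrs1 were at least 2-fold lower in heart and 0 were at least 2-fold higher. Over all those 6879 genes, 9.49% were at least 2-fold lower and 8.82% at least 2-fold higher. In cycling cells the median of the 7 was 0.07 against -0.14 over 6896 genes. There, 7 of the 8 reached 10 CPM (Myc did not), and 0 of the 8 were past 2-fold in either direction, where 7.05% of all genes were lower and 5.12% higher by that much. Over all T cells Myc and Rrs1 were again the members at least 2-fold lower, where 8.38% of 6946 genes were, and 0 were 2-fold higher, where 9.19% were.

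The core proteins of the box C/D particle differed from each other. Fbl, the methyltransferase, was at 57.8 CPM (55.2 to 60.5) in non-cycling heart cells and 89.8 CPM (87.3 to 92.4) in non-cycling spleen cells, a ratio of 0.643 (0.610 to 0.679). In cycling cells it was at 78.1 CPM (72.6 to 84.0) and 74.9 CPM (64.4 to 86.7), which overlap. The intervals of Fbl thus separated the organs in non-cycling cells and not in cycling cells, and the difference between those ratios was not tested. In cycling cells the log2 ratio of Fbl, 0.06, was -0.27 without cells of over 3 times the median UMI count, -0.19 in cells with a UMI of the receptor segments Trbv19 or Trav14, and -0.34 in cells with more G2/M than S phase UMIs. Nop58 showed the same, at 35.7 CPM (33.7 to 37.8) and 51.5 CPM (49.6 to 53.4) in non-cycling cells (ratio 0.693, 0.647 to 0.743) and 71.3 CPM (66.0 to 76.9) and 60.4 CPM (50.9 to 71.0) in cycling cells (ratio 1.18, 0.986 to 1.42). The log2 ratio of Nop58 in cycling cells, 0.24, was -0.0961 without the high-UMI cells and -0.25 with cells thinned to 1000 UMIs. Nop56, the partner of Nop58 in the particle, was higher in non-cycling heart cells, at 74.7 CPM (71.7 to 77.7) against 64.2 CPM (62.1 to 66.4) in spleen. Its ratio was 1.16 (1.10 to 1.23) there and 1.05 (0.912 to 1.22) in cycling cells, at 105 and 99.9 CPM. The log2 ratio of Nop56 in non-cycling cells, 0.21, was 0.06 with mitochondrial, ribosomal protein and Malat1 UMIs left out of the totals.

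Among the nucleolar proteins, Npm1 was higher, Ncl level and Nolc1 lower in non-cycling heart cells. Npm1, a chaperone that shuttles between nucleolus and cytoplasm, was at 1185 CPM (1173 to 1197) in heart against 927.5 CPM (919 to 936) in spleen, a ratio of 1.28 (1.26 to 1.29). The order was the same in cycling cells, at 1272 CPM (1249 to 1295) and 960 CPM (921 to 1000). Ncl, which binds nascent ribosomal RNA, was at 396 CPM (390 to 403) and 391 CPM (386 to 397) in non-cycling cells and at 541 CPM (526 to 556) and 566 CPM (536 to 597) in cycling cells, and neither ratio left equality (1.01, 0.991 to 1.04, and 0.956, 0.900 to 1.02). Over the alternatives the log2 ratio of Ncl in non-cycling cells ran from -0.14 to 0.06. In cycling cells it ran from -0.56 with cells thinned to 1000 UMIs to -0.03, with -0.32 without high-UMI cells and -0.29 in cells with more G2/M UMIs, so cycling cells were not level in Ncl under every alternative. Nolc1 was at 16.6 CPM (15.3 to 18.1) in non-cycling heart and 31.6 CPM (30.1 to 33.1) in non-cycling spleen cells, a ratio of 0.527 (0.478 to 0.580). Cycling cells of the organs overlapped for Nolc1, at 32.8 CPM (29.2 to 36.7) and 27.5 CPM (21.2 to 35.0). Their log2 ratio, 0.25, was -0.14 without high-UMI cells and -0.36 in cells with more G2/M UMIs. 

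Rrs1 was the gene of the 7 that was lower in the graft in both kinds of cell. In non-cycling cells it was at 9.82 CPM (8.78 to 11) in heart against 23.2 CPM (21.9 to 24.5) in spleen, 2.36-fold lower in heart (2.09 to 2.68). In cycling cells it was at 11.4 CPM (9.36 to 13.8) and 20.4 CPM (15.1 to 27.0), 1.79-fold lower (1.25 to 2.53). The share of non-cycling cells with an Rrs1 UMI after thinning was 3.72% (3.11 to 4.4%) in heart and 8.28% (7.61 to 8.98%) in spleen. For Nolc1 these shares were 5.68% (4.93 to 6.50%) and 11.1% (10.3 to 11.9%), and for Fbl 19.5% (18.2 to 20.9%) and 29.3% (28.2 to 30.4%). Without thinning, the shares were 8.19 and 17.3% for Rrs1, 11.6 and 21.1% for Nolc1, and 36.6 and 50.2% for Fbl. For Ncl the thinned shares were 74.8% in heart and 74.2% in spleen, with overlapping intervals, so the shares ran in the order of the CPM.

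**Figure D2:**
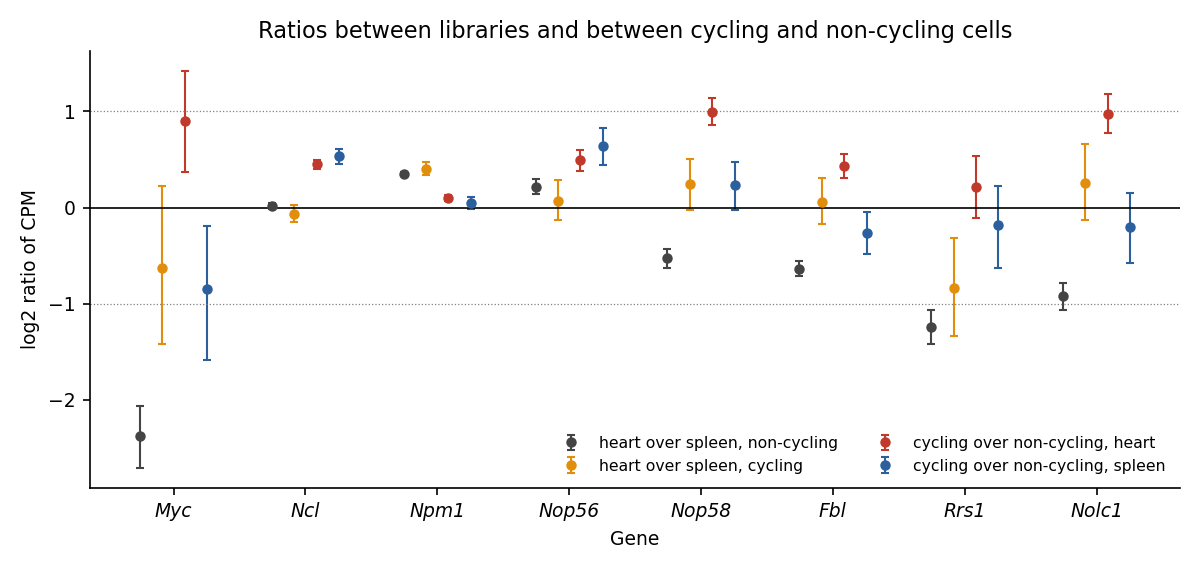
log2 ratios of CPM (no added count) for each gene with exact 95% binomial intervals, for heart over spleen in non-cycling (dark grey) and cycling cells (orange) and for cycling over non-cycling cells in heart (red) and spleen (blue). The dark grey points of Myc and Rrs1 lie below -1, and the red points of Nop58 and Nolc1 lie near 1 while the intervals of their blue points include 0.

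Within the graft, cycling cells had higher levels of the genes than non-cycling cells. All 8 ratios were above 1 with all cells and all UMIs, and the intervals of all but Rrs1 (1.16, 0.926 to 1.45) left equality. Npm1, Fbl and Rrs1 were not above 1 under every alternative. Nop58 was 2.0-fold higher (1.82 to 2.2) and Nolc1 1.97-fold higher (1.71 to 2.27). Myc was 1.87-fold (1.29 to 2.69), Nop56 1.41-fold (1.31 to 1.52), Ncl 1.37-fold (1.32 to 1.41), Fbl 1.35-fold (1.24 to 1.47) and Npm1 1.07-fold higher (1.05 to 1.10). The median log2 ratio of the 7 was 0.45, and that of all 6599 genes of at least 10 CPM was 0.04. With 1 CPM added, 0 of the 8 were at least 2-fold higher, where 8.47% of all genes were, and 0 were at least 2-fold lower, where 1.65% were. Of the 8, 7 reached 10 CPM here, and Myc did not.

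Cells with very high UMI counts weigh in these values. In heart, 31.9% of cycling cells had over 3 times the median UMI count of the library, against 1.80% of non-cycling cells. Without them the log2 ratio of Fbl was -0.0084 in place of 0.43 and that of Npm1 -0.25 in place of 0.10. The median of the 7 was then 0.20, and Nop58 was at 0.75 and Nolc1 at 0.67. Myc was at 0.35 in place of 0.71, and at 0.49 without cells holding an Hspa1a or Hspa1b UMI. Whether such cells are doublets was not tested.

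In the spleen the same contrast separated the genes. Ncl was 1.45-fold (1.37 to 1.53) and Nop56 1.56-fold (1.36 to 1.77) higher in cycling than in non-cycling cells. Fbl was lower in cycling cells, with a ratio of 0.834 (0.715 to 0.968), and so was Myc, with a ratio of 0.555 (0.332 to 0.873). The intervals of Npm1, Nop58, Rrs1 and Nolc1 included equality. The median log2 ratio of the 7 was 0.05, that of all 7087 genes 0.07, and 0 of the 8 were past 2-fold, where 11.2% of all genes were higher and 4.28% lower. Non-cycling spleen cells had 51.5 CPM of Nop58 and 31.6 CPM of Nolc1, against 71.3 and 32.8 CPM in cycling heart cells and 60.4 and 27.5 CPM in cycling spleen cells. For Nolc1 these intervals overlap, while for Nop58 that of cycling heart cells lies above that of non-cycling spleen cells.

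Levels by the number of cycling marker UMIs showed where in the range the genes differed. In heart, Nop58 was at 33.6 CPM (31.5 to 35.8) in the 3140 cells with 0 marker UMIs, 46.8 CPM (41.1 to 53.1) in the 413 with 1, 72.7 CPM (64.9 to 81.1) in the 210 with 2 or 3, and 70.1 CPM (62.9 to 77.8) in the 222 with 4 or more. Nolc1 was at 15.9, 20.8, 33.6 and 32.0 CPM in these cells. Both were higher with more marker UMIs up to 2 or 3 and level beyond. Heart Myc was at 2.49 CPM (1.94 to 3.15), 4.08 CPM (2.53 to 6.24), 7.09 CPM (4.82 to 10.1) and 3.40 CPM (1.98 to 5.45), highest in the class of 2 or 3. Spleen Myc was at 14.4 CPM (13.4 to 15.5) in cells with 0 marker UMIs and 7.38 CPM (3.81 to 12.9) in the 90 cells with 4 or more. Rrs1 stayed between 9.21 and 13.9 CPM in heart and between 17.8 and 25.8 CPM in spleen.

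**Figure D3:**
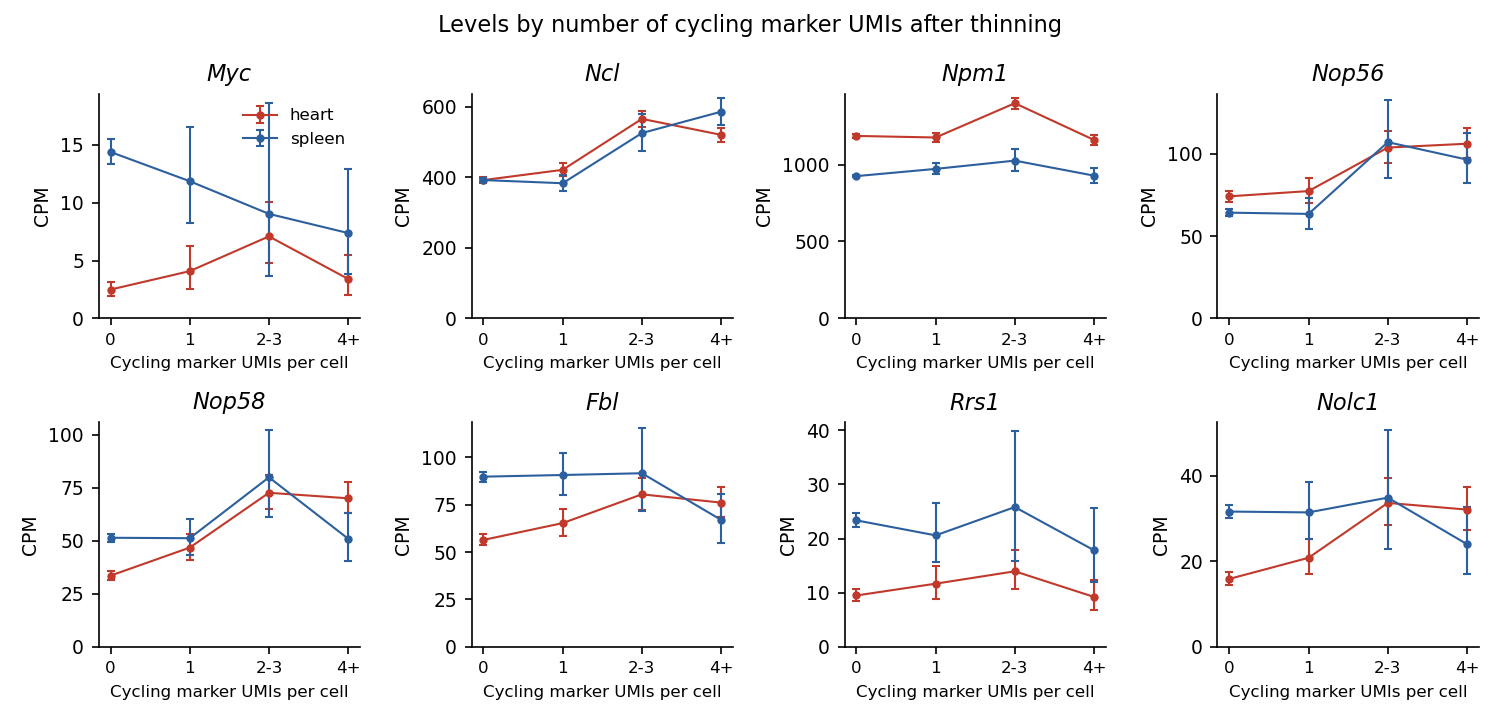
Levels in CPM (axes start at 0) of each gene in cells with 0, 1, 2 to 3 and 4 or more UMIs of 10 cycling markers after thinning to 1000 UMIs, in heart (red) and spleen (blue), with exact 95% Poisson intervals. In heart Nop58 and Nolc1 reach the spleen level at 2 to 3 marker UMIs, Rrs1 stays below it, and spleen Myc is lower with more marker UMIs.

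Cycling cells of the libraries were not at the same point of the cycle. Of cycling cells with at least 4000 UMIs, 299 in heart and 61 in spleen had more UMIs of 15 S phase genes than of 15 G2/M genes after thinning, and 108 and 77 had more G2/M UMIs. This split is also a range: 63 of the 299 and 27 of the 108 heart cells, and 16 of the 61 and 13 of the 77 spleen cells, lay within 2 UMIs of equality, and 21 and 7 more had equal counts. All 15 G2/M genes were lower in cycling heart than in cycling spleen cells, 12 of them at least 2-fold. Ncl, Npm1, Nop56, Nop58, Fbl and Nolc1 were higher in the cells with more S phase UMIs in both libraries. In heart the intervals of each of these genes were apart. In spleen only those of Npm1 and Nop56 were apart, and those of Ncl, Nop58, Fbl and Nolc1 overlapped. Fbl was at 88.6 CPM (81.7 to 95.9) in such heart cells and 49.8 CPM (40.7 to 60.3) in heart cells with more G2/M UMIs, and at 93.7 CPM (74.8 to 116) and 63.3 CPM (50.7 to 78.1) in spleen. Nolc1 was at 37.1 CPM (32.7 to 41.9) and 19.6 CPM (14.1 to 26.6) in heart, and at 32.0 CPM (21.4 to 45.9) and 25.5 CPM (17.7 to 35.4) in spleen, where the intervals overlap. The median log2 ratio of heart over spleen for the 7 genes was 0.07 in all cycling cells, -0.08 in cells with more S phase UMIs and -0.29 in cells with more G2/M UMIs. Rrs1 was lower in heart in both, at 12.1 and 17.6 CPM and at 9.58 and 21.8 CPM. Its intervals in S phase cells overlap (9.61 to 15 and 10.1 to 28.6), while those in G2/M cells just meet (5.85 to 14.8 and 14.7 to 31.2).

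Clusters made without the 8 genes gave 9 sums of at least 50 cells of 1 library. Each was nearly all from 1 library, so clusters are named by number and leading genes. In heart these were cluster 1 (2912 cells, led by Crem and Itgae), cluster 4 (617 cells, led by Birc5 and Stmn1, 64.2% of them cycling) and cluster 5 (439 cells, led by Hspa1a, Hspa1b, Ifng and Fosb). In spleen they were cluster 0 (2995 cells, led by Dapl1 and Klf2), cluster 2 (2072 cells, led by Egr2, Wnt10a and Id3), cluster 3 (969 cells, led by Ccl5 and Ccr2), cluster 6 (231 cells, led by sterol synthesis genes such as Idi1), cluster 7 (146 cells, led by Ifit3) and cluster 9 (71 cells, led by Hist1h1b and Cenpf, 98.6% cycling).

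Myc was lowest in heart cluster 1, at 1.80 CPM (1.32 to 2.40), and highest in spleen cluster 2, at 16.8 CPM (14.9 to 18.8). The order from low to high was heart cluster 1, heart cluster 4 (4.56 CPM, 3.49 to 5.86), spleen cluster 9 (6.79 CPM, 3.10 to 12.9), heart cluster 5 (9.81 CPM, 6.67 to 13.9), then spleen clusters 6, 7, 3, 0 and 2 (10.7, 12.1, 12.6, 13.4 and 16.8 CPM). Neighbours in that order overlap in their counting intervals, except heart clusters 1 and 4. Heart cells were thus not low throughout: the interval of cluster 5 overlaps those of spleen clusters 6, 7, 3 and 0.

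Among non-cycling heart cells the 33 with a thinned Myc UMI also had higher levels of immediate early and heat shock genes. What lay behind this was not tested. Nr4a1 was at 212 CPM (141 to 307) in them and 63.3 CPM (59.1 to 67.6) in the 3437 without a Myc UMI, Fosb at 68.2 CPM (31.2 to 129) and 22.0 CPM (19.6 to 24.6), and the heat shock gene Hspa1a at 189 CPM (123 to 280) and 67.3 CPM (63.0 to 71.8). In spleen, Nr4a1 was at 42.9 CPM (31.6 to 56.8) in the 280 cells with a Myc UMI and 14.6 CPM (13.1 to 16.2) in the others, while Fosb was at 1.79 CPM (0.216 to 6.45) and 1.20 CPM (0.801 to 1.72), which overlap, and Hspa1a had 1 and 3 UMIs in them. Of the ribosome biogenesis genes, Npm1 was at 1485 CPM (1284 to 1708) in the heart cells with a Myc UMI and 1178 CPM (1160 to 1196) in the others. Ncl was at 515 CPM (400.0 to 653) and 394 CPM (383 to 404), and its intervals overlapped, as did those of the other 5. Non-cycling spleen Npm1 was at 906 CPM (851 to 964) with a Myc UMI and 919 CPM (907 to 931) without. Spleen Ncl was at 404 CPM (368 to 443) and 385 CPM (377 to 393). The spleen intervals of all the ribosome biogenesis genes overlapped. These are levels in cells of 1 library each, with no test, and the genes other than Myc were picked after the leading genes of cluster 5 had been seen. Without the 399 non-cycling heart cells and 16 spleen cells that held an Hspa1a or Hspa1b UMI, the log2 ratio of Myc between the organs was -2.27.

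Of the other genes, Rrs1 was lower in every heart sum than in spleen clusters 0, 2, 3, 6 and 7, at 7.91 to 12.6 CPM against 17.8 to 28.5 CPM, and spleen cluster 9 lay among the heart sums at 11.3 CPM (6.33 to 18.7). Npm1 was higher in every heart sum (1169 to 1290 CPM) than in every spleen sum (886 to 999 CPM). Nop58 was lowest in heart cluster 1 (28.4 CPM, 26.4 to 30.5) and highest in heart cluster 4 (70.4 CPM, 66.0 to 75.0), so heart held both ends of its range. Nolc1 had its lowest level in the same heart cluster (13.1 CPM, 11.8 to 14.6) and its highest in spleen cluster 2 (37.8 CPM, 35.0 to 40.8). Ncl was highest in the cycling sums, at 599 CPM (559 to 643) in spleen cluster 9 and 526 CPM (514 to 538) in heart cluster 4, with spleen cluster 2 next among spleen sums at 468 CPM (458 to 479). Nop56 was likewise highest in those cycling sums, at 109 and 104 CPM, and lowest in spleen cluster 7 at 45.2 CPM (34.2 to 58.8). Fbl was lowest in heart clusters 1 and 5, at 54.3 and 55.7 CPM, and highest in spleen clusters 6 and 2, at 98.1 and 96.6 CPM.

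**Figure D4:**
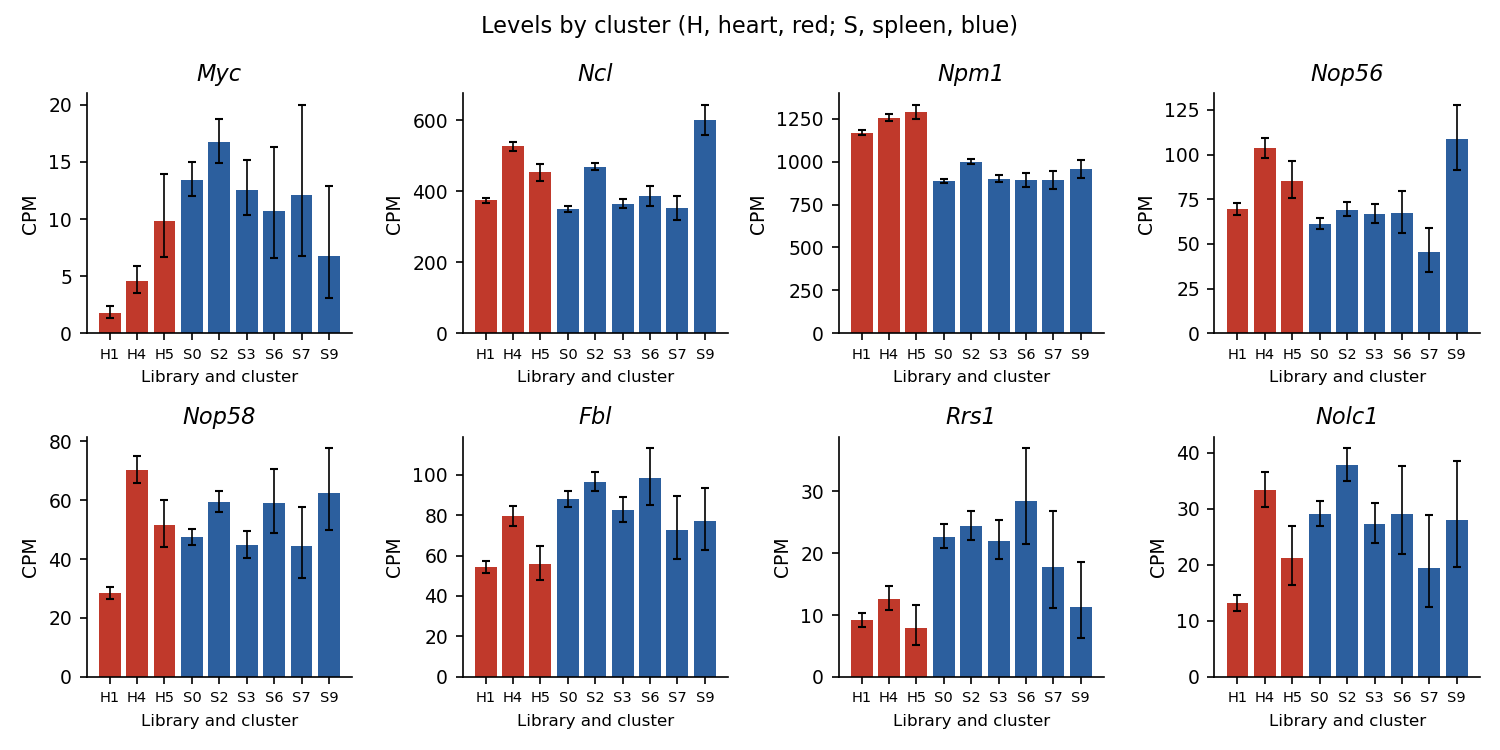
Levels in CPM of each gene in the 9 sums of at least 50 cells, heart clusters in red (H) and spleen clusters in blue (S), bars from 0 with exact 95% Poisson intervals. Myc is lowest in heart cluster 1 (1.80 CPM), Npm1 is higher in all 3 heart bars than in the 6 spleen bars, and Ncl and Nop56 peak in the cycling clusters H4 and S9.

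Most genes of ribosome assembly lists, of which some hold members, were lower in non-cycling graft cells. Of 33 large subunit assembly factors that reached 10 CPM, 30 were lower in heart, 8 of them at least 2-fold (Rrs1, Noc3l, Nifk, Ftsj3, Ddx18, Rpf2, Rrp15 and Gtpbp4), with a median log2 ratio of -0.70. Of 27 genes of the small subunit processome, which processes the precursor of the small subunit, 26 were lower, 4 at least 2-fold (Wdr75, Pdcd11, Rrp9 and Tsr1), with a median of -0.56. Over all 6879 genes 59.2% were lower, 9.49% were at least 2-fold lower, and the median was -0.15. Noc3l was at 2.80 CPM in heart against 13.9 CPM in spleen, Rrp15 at 8.18 and 29.1 CPM, Rpf2 at 7.97 and 25.6 CPM, Tsr1 at 4.23 and 15.8 CPM, Wdr75 at 6.69 and 18.8 CPM, and Rrp9 at 8.79 and 23.1 CPM. In cycling cells 23 of 30 large subunit factors and 19 of 26 processome genes were lower, with medians of -0.14 and -0.28, where 62.0% of all genes were lower with a median of -0.14.

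Counts for the snoRNA particles and the RNA polymerases stand beside the same background, 59.2% of all genes lower in heart and 9.49% at least 2-fold lower. The RNA polymerase I and III lists were near that share of lower genes. All 4 box H/ACA particle genes past the floor were lower in non-cycling heart cells, with a median of -0.95: Dkc1, the pseudouridine synthase, was at 17.2 CPM in heart against 48.3 CPM in spleen, Nop10 at 110 and 216 CPM, and Gar1 at 16.6 and 32.7 CPM. In the box C/D list, which holds Nop56, Nop58 and Fbl, 7 of 9 were lower with a median of -0.52. The assembly factor Znhit6 was the member at least 2-fold lower, at 5.38 and 25.3 CPM, and Ruvbl1 was at 21 and 34.7 CPM. Among nucleolar genes 5 of 7 were lower with a median of -0.46, with Tcof1, the treacle protein, at 36.3 and 79.9 CPM and the helicase Ddx21 at 80.9 and 114 CPM. Of 11 RNA polymerase I genes 7 were lower, with a median of -0.51, and 3 of them at least 2-fold: the largest subunit Polr1a (5.14 and 14.1 CPM), Cd3eap (5.11 and 19.7 CPM) and the factor Ubtf (47.5 and 101 CPM). RNA polymerase III genes had a median of -0.23, with 6 of 9 lower, among them Polr3d (5.05 and 14.7 CPM), Polr3f (8.15 and 13.5 CPM) and Brf1 (7.75 and 11.3 CPM).

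In cycling cells the medians were -0.32 for box H/ACA, -0.07 for nucleolar genes and -0.19 for RNA polymerase I, nearer to equality than in non-cycling cells, and -0.29 for RNA polymerase III, farther from it. Within the graft, 25 of 30 large subunit factors and 18 of 24 processome genes were higher in cycling than in non-cycling cells, with medians of 0.31 and 0.34, and all 9 box C/D and all 4 box H/ACA genes were higher, with medians of 0.79 and 0.98. Over all genes 47.2% were lower there, with a median of 0.04. In the spleen 8 of 33 large subunit factors and 12 of 27 processome genes were higher in cycling cells, with medians of -0.19 and -0.12, where 45.9% of all genes were lower and the median was 0.07. The contrasts were not tested against each other. Leaving mitochondrial, ribosomal protein and Malat1 UMIs out of the totals moved the median of all genes in non-cycling cells from -0.15 to -0.30. The large subunit list moved with it from a median of -0.70 to -0.86, and the processome list from -0.56 to -0.72.

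**Figure D5:**
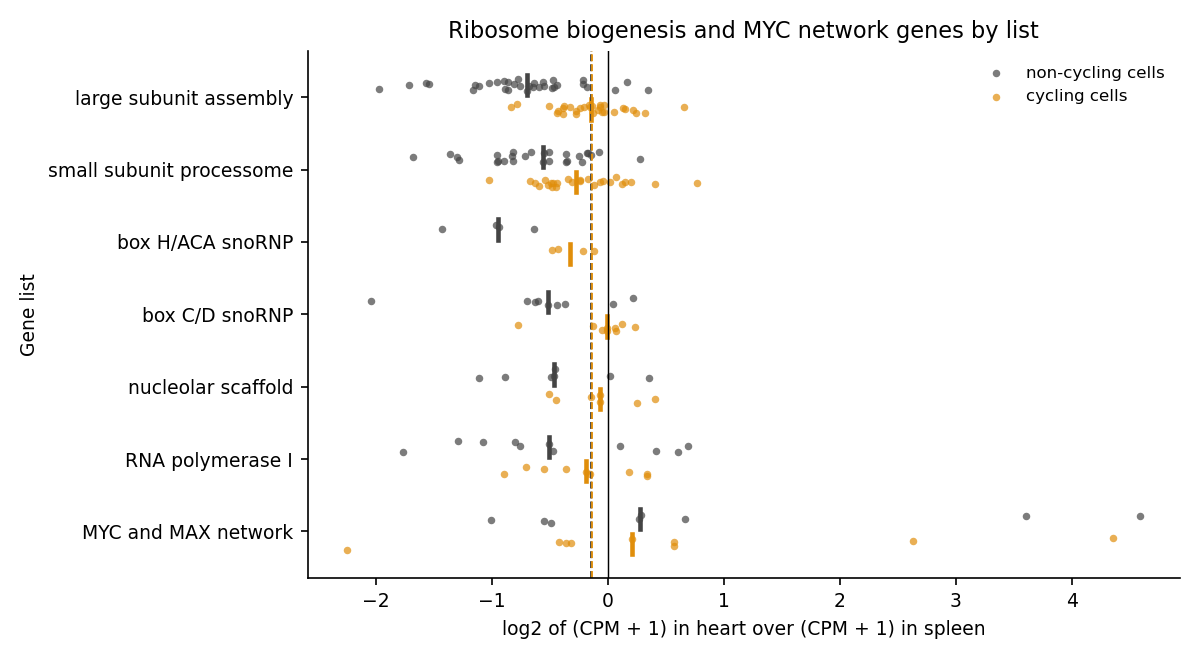
Heart over spleen log2 ratios, with 1 CPM added to each, for each gene of at least 10 CPM in 7 lists, in non-cycling (dark grey) and cycling cells (orange), with vertical bars at list medians and dashed lines at the medians of all such genes (-0.15 and -0.14, nearly on top of each other). Most dark grey points of the large subunit and processome lists, and all those of the box H/ACA list, lie left of the dashed lines. Mxd1 and Mxi1 stand apart on the right of the bottom row.

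The partners and opponents of MYC differed in both directions. MXD proteins and MXI1 compete with MYC for MAX and repress at E-boxes. Mxd1 was at 204 CPM in non-cycling heart cells and 7.5 CPM in spleen (log2 ratio 4.59), and at 130 and 5.41 CPM in cycling cells (4.35). Mxi1 was at 95.1 and 6.88 CPM in non-cycling cells (3.61) and 67.3 and 9.99 CPM in cycling cells (2.63). Mxd3, a family member known from dividing cells, was at 22.5 and 111 CPM in cycling cells, and was picked after its values were seen. Mlx, a partner of other factors of the network, was at 22.4 and 46.0 CPM in non-cycling cells. Of 8 network genes past the floor in non-cycling cells, 5 were higher and 3 lower. Of 6 genes of MYC protein turnover 4 were lower, among them the ubiquitin ligase genes Fbxw7 (15.4 and 30.1 CPM) and Huwe1 (53.2 and 65.7 CPM), while the kinase gene Pim1 was at 385 and 61.5 CPM.

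Other genes known as MYC targets were mixed. The counts in heart against spleen for these lists, and for the turnover and network lists, stand beside 59.2% of all genes lower, 9.49% at least 2-fold lower and 8.82% at least 2-fold higher, and several are near those shares. Of 17, 12 were lower in non-cycling heart cells, with a median of -0.48. Apex1 (7.09 and 26.5 CPM), Mybbp1a (7.57 and 25.2 CPM) and Ccnd2 were at least 2-fold lower, and Slc16a1 and the transferrin receptor gene Tfrc (16.7 and 6.01 CPM) at least 2-fold higher. In nucleotide and polyamine synthesis 7 of 10 were lower with a median of -0.37, with Srm, spermidine synthase, at 5.38 and 19.0 CPM and Gart at 8.33 and 23.9 CPM. Odc1, which makes the precursor of spermidine, was at 514 and 53.7 CPM. In cycling cells Srm was at 14.7 and 11.7 CPM and Odc1 at 464 and 134 CPM. Translation factors had a median of -0.04, with Eif4ebp1, an inhibitor of cap-dependent initiation, at 29.3 and 8.11 CPM, Eef1e1 at 20.4 and 34.5 CPM and Eif4g1 at 47.8 and 75.8 CPM. Of the 8 snoRNA host genes listed, 2 were matched, and both were higher in heart: Snhg6 (74.9 and 40.3 CPM) and Snhg12 (57.3 and 29.8 CPM). In the list of the 5S particle and p53 checkpoint, which nucleolar stress engages, 4 of 6 were higher. Cdkn1a was at 61.5 and 0.71 CPM, Gltscr2 at 197 and 140.0 CPM, and Rpl5 at 1306 and 2056 CPM.

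Ribosomal protein genes, the end product of the same growth programme, made up 30.1% of UMIs in non-cycling heart cells, 35.0% in non-cycling spleen cells, 25.1% in cycling heart cells and 23.2% in cycling spleen cells. In absolute terms the 7 genes together gave 16.4 UMIs per non-cycling cell in heart and 13.2 in spleen, and 45.8 and 29.97 UMIs per cycling cell. Npm1 with 38956 and Ncl with 13034 UMIs made up most of the sum in non-cycling heart cells, so it does not speak for the other 5 genes, of which 4 were lower in heart in CPM. Per cell, Myc gave 0.0253 and 0.119 UMIs in non-cycling and 0.111 and 0.131 UMIs in cycling cells. Less RNA per cell and lower capture cannot be told apart in such counts.

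Over the 9 library and cluster sums, the genes whose log2(CPM + 1) was most like that of Myc, of 2595 genes that reached 50 CPM in either organ, were Esf1 (Pearson r 0.87), Arhgef3 (0.84), Id3 (0.84), Ddx21 (0.83) and Naa15 (0.82). Esf1 was at 32.6 CPM in heart against 63.4 CPM in spleen over all T cells, and Id3, an inhibitor of E proteins, at 6.20 and 403 CPM. Those most like the mean of the 7 ribosome biogenesis genes were Bola2 (0.91), Timm17b (0.87), Imp4 (0.86), Phb2 (0.85) and Cops6 (0.84), of which Imp4 is a processome protein (39.7 and 52.9 CPM over all T cells). Among the 8 genes themselves, r was 0.90 between Fbl and Rrs1, 0.88 between Ncl and Nop56 and 0.86 between Nop58 and Nolc1, while Npm1 and Rrs1 had -0.79. Myc had 0.68 with Rrs1, 0.63 with Fbl and -0.59 with Npm1. These are descriptions over 9 points that share 2 libraries, their depths and their cells, with no test.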

How the data were processed

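Single-cell RNA sequencing of sorted TEa cells with droplet 3' chemistry was used, 1 wild-type library per organ. Per the labels' protocols cells were sorted, though the same text speaks of nuclei at droplet loading. The deposited values are raw counts of UMIs, a row per gene and a column per barcode. Per the file headers both came from Cell Ranger 3.0.2. Per the submitters' processing notes the tools were Seurat 4.0.0 and Cell Ranger 7.0.0, with mm10. The treatment of intronic reads is not given in the sources used here.

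Barcodes with at least 1000 UMIs, 500 genes and at most 10% mitochondrial UMIs were kept (4074 heart, 6583 spleen). They were clustered jointly (scanpy 1.11.5, leidenalg 0.10.2, resolution 0.6, 30 components of 2000 variable genes) without the 8 genes, sex-linked, mitochondrial and ribosomal protein genes and receptor segments. The 1 cluster with summed monocyte or macrophage markers of 9107 CPM (next 356 CPM) was removed, 89 heart and 24 spleen barcodes. No doublet caller was run, so doublets can remain. Counts were summed per library and class and scaled to CPM. The log2 ratios use CPM + 1, and fold ratios with intervals have no added count. The 8 genes are always named, and of each list up to 3 genes with the largest ratio in non-cycling cells, while further genes at least 2-fold apart were named after their values were seen. Likeness used Pearson's r over the cluster sums. The genes, lists and rule were chosen with earlier results of these data known. The ratio functions were tested on simulated counts for heart over spleen (2325 genes): 100% of 200 changed genes were recovered, and intervals covered 95.1% of true ratios. The changed genes all had the same fold change, up or down, well past 2-fold. They were drawn from genes above the spleen level of most of the 8 genes. Recovery was therefore not tested for smaller changes or for genes as low as Myc. Variation between libraries was not simulated. Alternatives tried were other totals, per-cell means, thinning, pseudocount, UMI, mitochondrial and cycling limits, removal of high-UMI cells and receptor-positive cells alone.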

Additional observations from a re-analysis of the deposited data

Results flagged for a closer look

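Myc moved in opposite directions with cycling in the libraries. Its log2 ratio of cycling over non-cycling cells was 0.71 in heart and -0.78 in spleen, and the counting intervals of both ratios left equality. The heart value was 0.35 without cells of over 3 times the median UMI count and 0.49 without cells holding an Hspa1a or Hspa1b UMI. The thinned shares of heart cells with a Myc UMI were 0.935% (0.255 to 2.38%) in cycling and 0.951% (0.656 to 1.33%) in non-cycling cells. The cycling share rests on 4 of 428 cells, too few to order them. Fbl did likewise, at 0.43 in heart and -0.26 in spleen, though the heart value was -0.0084 without cells of over 3 times the median UMI count. The differences between the libraries were not tested, since each is 1 library, and the cycling Myc levels rest on 48 and 19 UMIs.

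Myc was also present in the removed cluster with monocyte or macrophage markers, which no comparison used. It was at 9.91 CPM (6.41 to 14.6, 25 UMIs) in the 89 heart barcodes and 36.9 CPM (19.7 to 63.1, 13 UMIs) in the 24 spleen barcodes, against 3.27 and 14 CPM in the T cells of these libraries. All the ribosome biogenesis genes were higher than in T cells in the spleen barcodes too, with Ncl at 1150 against 399 CPM. In the heart barcodes all of them but Fbl were lower than in T cells, with Ncl at 328 against 428 CPM.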

How the results depend on the processing

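No paired analysis was possible because each group has 1 library. For Myc, heart over spleen stayed negative in all T cells and in non-cycling cells under every alternative run. The log2 ratios were -2.06 and -2.29 when Malat1, ribosomal protein and mitochondrial UMIs were taken out of the totals, -1.20 and -1.31 with 5 CPM added, and -2.13 and -2.27 without cells holding an Hspa1a or Hspa1b UMI, a setting chosen after seeing the data. In cycling cells it was 0.27 in cells with more S phase UMIs, also chosen after seeing the data. Thinning to 1000 UMIs left almost no Myc UMIs in cycling cells and gave 2.49 there and -3.85 for cycling over non-cycling cells in spleen.

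For the median of the 7 ribosome biogenesis genes, heart over spleen in all T cells (-0.25) was -0.42 with the other totals, -0.47 with per-cell means, -0.53 thinned, -0.51 without high-UMI cells and -0.33 without heat shock positive cells. In non-cycling cells (-0.52) it was -0.68 with the other totals, -0.63 thinned, -0.63 without high-UMI cells and -0.71 outside the clusters led by cycling genes, chosen after seeing the data. In cycling cells (0.07) it was -0.25 thinned, -0.14 without high-UMI cells and -0.29 in cells with more G2/M UMIs. Cycling over non-cycling in heart (0.45) gave 0.33, 0.34, 0.31 and 0.20 with the other totals, per-cell means, thinning and without high-UMI cells. It was 0.51 with cycling at 3 or more marker UMIs and non-cycling at 0, and 0.52 outside the cycling clusters. In spleen (0.05) the first 4 of these gave -0.26, -0.0606, -0.30 and -0.13, and cells with a receptor UMI 0.11.

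Among single genes, Ncl in all T cells (0.10) turned to -0.0676 with the other totals and -0.01 without high-UMI cells. Npm1, cycling over non-cycling in heart (0.10), turned to -0.0194 with the other totals, -0.0708 with per-cell means, -0.0032 thinned and -0.25 without high-UMI cells, and Fbl there (0.43) to -0.0084 without high-UMI cells. The cause of these shifts was not tested. Depth limits Myc in cycling spleen cells most: 3 UMIs there correspond to 1.25 CPM.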
